A study of Drosophila melanogaster with 2 samples.

Results

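Between the genes of the Drosophila embryo, CG2875 fused to green fluorescent protein (GFP) marked 520 sites that lay more than 1000 bp from every annotated transcription start site (TSS) and in no annotated gene body. They were 520 of the 4278 peaks (12.2%, exact 95% interval 11.2 to 13.2%) that the authors kept after applying a limit on the irreproducible discovery rate (IDR), which scores how alike 2 replicates rank their peaks. A site was chosen by its summit, the base where the peak is highest, on the dm6 assembly and with transposable elements left out of the gene annotation. The data are chromatin immunoprecipitation sequencing (ChIP-seq) peak lists from whole embryos of mixed sex, collected at 0 to 14 h, with sonicated fragments of 200 to 800 bp. A single transgenic line carried the C-terminal fusion, and the antibody recognised GFP. The only group holds 2 biological replicates, pools all embryonic tissues, and has no second condition and no untagged line beside it. Every value below is therefore a description of 1 group, with no test, and the read depth behind the peaks is unknown.

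DNA between genes holds much of the control machinery of a fly embryo. Enhancers there bind transcription factors and act on promoters over a distance, insulators separate the domains of neighbouring genes, and Polycomb response elements keep developmental regulators silent in the wrong cells. Promoters of non-coding RNA and tRNA genes lie there as well, so a site far from protein-coding genes need not be far from transcription. A ChIP-seq peak shows that the tagged protein, or something crosslinked to it, was recovered with that DNA; it does not show which of these elements the DNA is.

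Sequences from 6 of the 11 strongest intergenic sites are shown first, because the results begin with base composition and these sites span much of its range. The summit and 50 bp on each side of it are given, 5′ to 3′ on the plus strand of dm6, with every run of 6 or more A and T bases in capitals.
near CG31668, chr2L:2202352-2202452: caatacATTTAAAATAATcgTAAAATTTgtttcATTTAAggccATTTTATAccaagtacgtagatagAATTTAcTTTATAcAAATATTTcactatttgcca
near CG43131, chr3R:5113242-5113342: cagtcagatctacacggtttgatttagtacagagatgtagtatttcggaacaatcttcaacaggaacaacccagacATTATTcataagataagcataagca
near lncRNA:CR45411, chr3L:724604-724704: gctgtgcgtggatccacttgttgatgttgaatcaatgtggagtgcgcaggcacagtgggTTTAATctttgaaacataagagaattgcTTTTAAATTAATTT
near lncRNA:CR45693, chr2L:14505172-14505272: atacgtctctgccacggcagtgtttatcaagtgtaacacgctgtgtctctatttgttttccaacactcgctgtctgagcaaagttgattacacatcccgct
near lncRNA:CR45695, chr2L:1648731-1648831: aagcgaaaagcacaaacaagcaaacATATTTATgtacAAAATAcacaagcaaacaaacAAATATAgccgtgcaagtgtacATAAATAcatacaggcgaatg
near zfh2, chr4:497839-497939: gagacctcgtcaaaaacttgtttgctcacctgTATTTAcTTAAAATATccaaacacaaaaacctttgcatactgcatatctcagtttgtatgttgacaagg
The site near CG31668 has the most such runs of these 6, and a GC content of 23.8% over the printed bases. At the other end, the site near lncRNA:CR45693 has none and a GC content of 45.5%, above the median of eligible intergenic sequence at that length (41.6%).

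Intergenic summits sat in a narrow AT-rich dip. Over the summit and 100 bp on each side, the median GC content was 35.3% (quartiles 31.3 and 39.3%, n = 520), against 41.3% (34.8 and 46.8%) over 164058 windows of the same length that cover all sequence eligible under the same rule. That dip was not particular to sites between genes: peaks inside gene bodies and over 1000 bp from a TSS had a median of 35.8% (n = 1500), and peaks within 500 bp of a TSS (promoter peaks) had 36.3% (n = 1777). The mean GC content of the intergenic sites was 34.0% in the 25 bp bin just before the summit and 42.6% at 113 bp before it. It was highest, at 46.1%, at 363 bp before the summit. Farther out it was lower again, with 42.3% at 488 bp before the summit and 41.9% at 487 bp after it. At 112 bp after the summit it was 42.1%, so the dip was close to symmetric and about as wide on both sides. Window length changes this contrast: the difference from eligible sequence was -5.97 percentage points here, -7.92 with 50 bp and -1.50 with 200 bp on each side of the summit. How far base composition affected library preparation or read mapping was not tested. None of the 520 central 36-mers occurs a second time on these chromosome arms (0 of 520).

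Below the IDR limit, GC content rose as signal fell. Among intergenic peaks of the pooled list (called on both replicates together, with weak peaks kept), the median GC content was 36.1% for ranks 1 to 1000 (n = 100) and 35.3% for ranks 2501 to 4278 (n = 242), so it did not rise down the IDR list itself. It was 36.3% just below the IDR limit, at ranks 4279 to 6000 (n = 235). Ranks 20001 to 30000 (n = 2010) had 41.8%, close to the eligible sequence. These peaks all come from the same 2 libraries, so the trend describes those libraries.

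**Figure D1:**
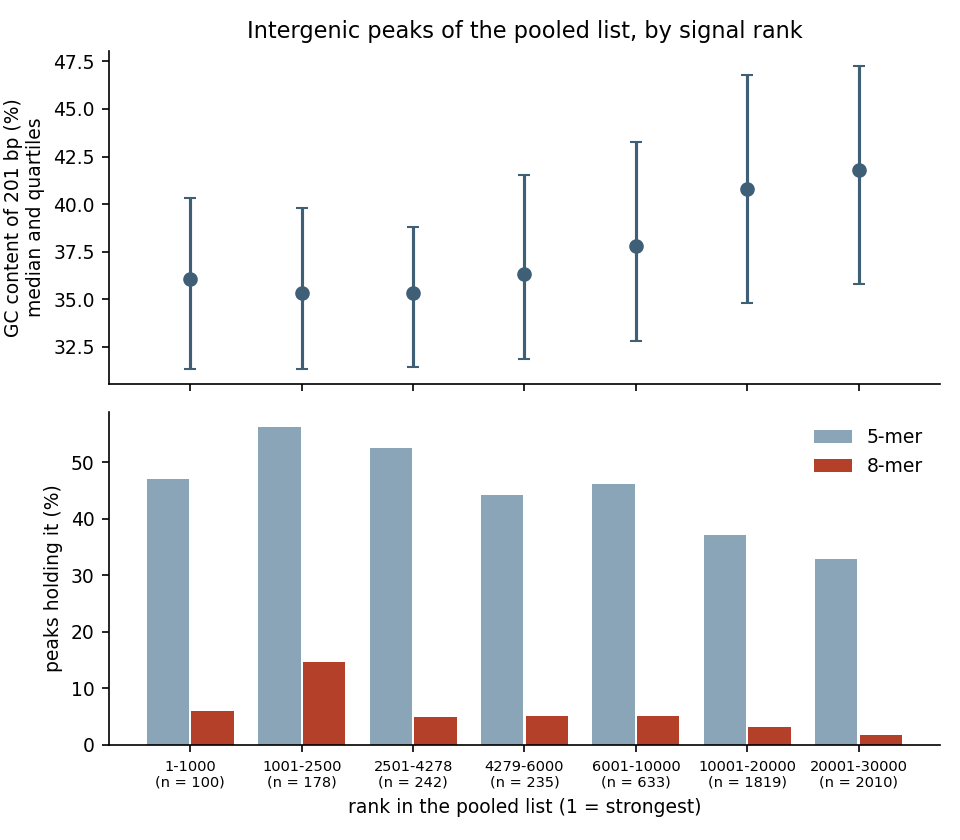
GC content of the summit with 100 bp on each side (median with quartiles, upper panel) and percent of peaks holding the 5-mer CACTG or the 8-mer CACTGAGA (bars, lower panel) for intergenic peaks of the pooled list, by signal rank, with the number of peaks under each bin. Median GC rises from 36.1% to 41.8% from the strongest to the weakest bin, and the 5-mer share is lowest in the weakest bin, at 33.0%.

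A short word stood out beside the dip. Among all 8-mers held by at least 15 intergenic sites, counted on both strands, the one with the highest ratio of its share in the 520 summit windows (100 bp on each side) to its share in eligible windows was CACTGAGA (reverse complement TCTCAGTG). It was picked from the ranking after the data were seen, and no factor is named for it here. It occurred in 44 sites (8.46%), against 0.677% of eligible windows, a ratio of 12.5. The lists of single replicates, cut to the strongest 4278 peaks, gave 8.52% (replicate 1) and 8.22% (replicate 2). Other classes held it less often: 5.07% of gene body peaks, 1.97% of promoter peaks and 2.87% of the 4697 intergenic pooled peaks outside the IDR list. As the word was picked for its ratio at the 520 sites, lower shares elsewhere are favoured by that choice. Gene body peaks still held it at 7.48 times the eligible share and promoter peaks at 2.91 times. The word was thus not particular to sites between genes. The share did not climb steadily with signal, being 6% at ranks 1 to 1000 (n = 100), 14.6% at ranks 1001 to 2500 (n = 178) and 4.96% at ranks 2501 to 4278 (n = 242).

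Of the intergenic sites that hold the word, 5 of the strongest are printed with 100 bp on each side of the summit, on the plus strand of dm6, with the word in either orientation in capitals. They show that it sits to the side of the summit, which is the base in the middle of each line, and that 1 of the 5 carries it on both sides.
near slp2, chr2L:3832427-3832627: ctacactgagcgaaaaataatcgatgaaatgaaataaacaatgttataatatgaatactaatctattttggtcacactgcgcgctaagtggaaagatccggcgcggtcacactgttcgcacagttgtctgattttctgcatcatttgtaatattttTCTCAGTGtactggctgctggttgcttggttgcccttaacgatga
near lncRNA:CR45937, chr3L:18235937-18236137: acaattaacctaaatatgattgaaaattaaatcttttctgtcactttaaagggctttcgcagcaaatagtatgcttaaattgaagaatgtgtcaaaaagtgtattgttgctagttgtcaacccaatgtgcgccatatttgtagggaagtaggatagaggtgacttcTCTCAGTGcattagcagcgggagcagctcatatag
near lncRNA:CR45303, chr2L:14502662-14502862: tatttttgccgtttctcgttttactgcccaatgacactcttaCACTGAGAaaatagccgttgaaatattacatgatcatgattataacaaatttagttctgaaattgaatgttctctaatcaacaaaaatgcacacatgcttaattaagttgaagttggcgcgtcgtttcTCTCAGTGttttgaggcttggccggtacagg
near tRNA:Ile-TAT-1-1, chr3L:762446-762646: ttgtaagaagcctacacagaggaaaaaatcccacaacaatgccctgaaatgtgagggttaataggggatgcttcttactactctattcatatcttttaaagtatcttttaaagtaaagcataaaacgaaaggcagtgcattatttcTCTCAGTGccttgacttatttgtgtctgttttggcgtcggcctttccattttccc
near CG43401, chr2L:1433793-1433993: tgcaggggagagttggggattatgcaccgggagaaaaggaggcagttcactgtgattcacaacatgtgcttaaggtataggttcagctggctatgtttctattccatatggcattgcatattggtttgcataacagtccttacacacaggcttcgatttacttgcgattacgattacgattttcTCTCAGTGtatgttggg
In that site, near lncRNA:CR45303, the 2 copies have opposite orientations. Altogether 40 of the 44 sites held 1 copy and 4 held 2 copies.

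Several of the next words overlap the first. ACTGAGAG (5.38% of sites, ratio 11.3), CTGAGAGA (4.81%, 10.1) and ACACTGAG (4.81%, 9.68) are shifts of it by a few bases. CAGTGTAG (4.42%, ratio 10.6) is a longer shift, as it reads CTACACTG on the other strand. It shares with the first word only the 5-mer CACTG, with which the first word begins. That 5-mer occurred in 274 of the 520 sites (52.7%) and in 27.6% of eligible windows, a ratio of 1.91, with 53.3% in replicate 1 and 52.9% in replicate 2. It was also common in gene body peaks (49.7%) and promoter peaks (42.1%), so it was not particular to sites between genes. Among 59 copies of the 8-mer that lay with their flanks within 150 bp of an intergenic summit, an A followed at positions 10 and 11 (counted from its first base) in 89.8% and 93.2%.

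Both words were densest beside the summit, at 50 to 150 bp from it. Within 500 bp of the 520 summits there were 76 copies of the 8-mer, 48 of them (63.2%) at 50 to 150 bp, with 21 before and 27 after the summit. This is a density of 46.2 copies per kb per 100 sites, against 26.9 within 50 bp (14 copies) and 3.85 at 150 to 500 bp (14 copies). The 5-mer had densities of 400, 271 and 181 in the same zones. Both words come from the ranking over 100 bp on each side of these same summits. A higher density there than farther out is therefore built into that choice and is no separate result. The 5-mer gave 23.3 copies per 100 sites in the 50 bp bin that starts 100 bp before the summit, 12.7 in the bin just before it and 14.4 in the bin just after it. It rose again to 22.5 copies in the bin from 50 to 100 bp after the summit. Peaks inside gene bodies had a similar double crest, of 19.5 and 22.1 copies, and promoter peaks a lower one, of 14.97 and 17.4.

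**Figure D2:**
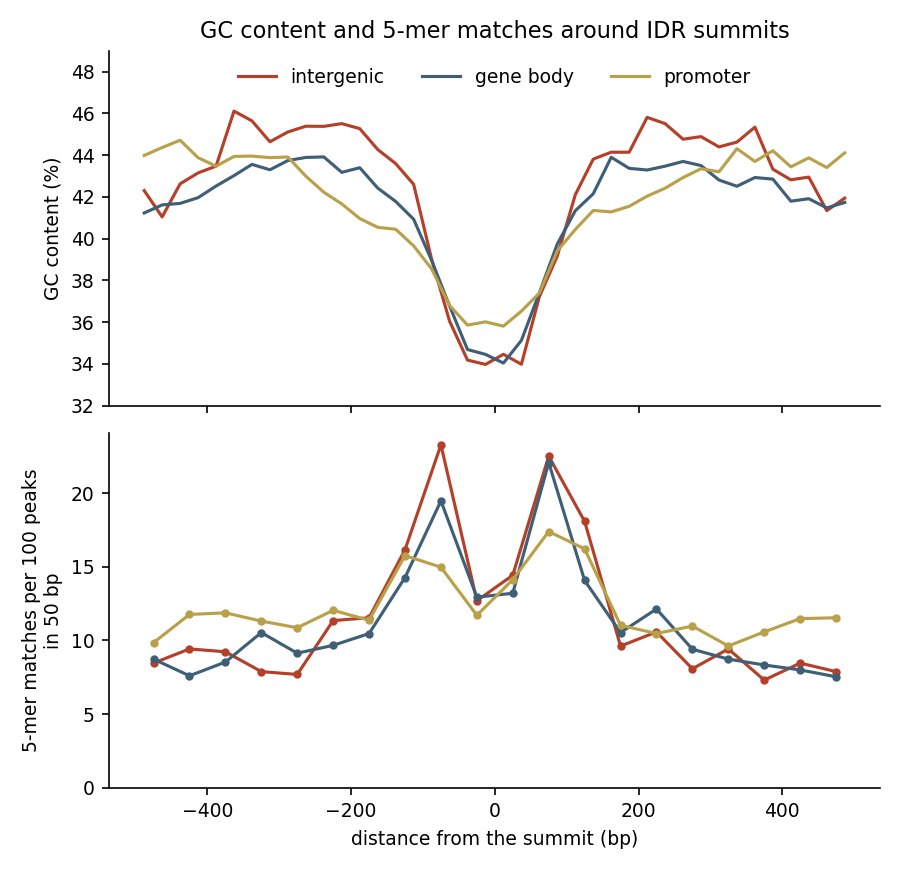
Mean GC content in 25 bp bins (upper panel) and copies of the 5-mer CACTG, on either strand, per 100 peaks in 50 bp bins (lower panel) against the distance from the summit, for 520 intergenic, 1500 gene body and 1777 promoter peaks. All 3 classes dip in GC at the summit, and the 5-mer has a crest on each side of it, highest for the intergenic sites before the summit at 23.3 copies.

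Sites with the 8-mer were spread over the genome, in 44 different gaps between genes. Their median signal was 206 (quartiles 165 and 278, n = 44), against 173 (140 and 264, n = 476) for sites without it. In the replicate lists the medians were 96.2 with and 79.3 without it in replicate 1, and 110 with and 96.6 without it in replicate 2. Both replicates thus have the higher median on the same side, but the quartiles of the groups overlap. Such sites were among the strongest 4278 peaks of both replicates in 70.5% of cases (31 of 44), against 56.3% (268 of 476) of the rest.

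Binding motifs of known factors were searched as 25 fixed words on both strands of the same windows, 100 bp to each side of the summit. These were GAGAG and the longer GAGAGAGA (GAGA factor), TATCGATA (DRE, bound by Dref), CGATA (BEAF-32), CAGGTAG (Zelda), CACGTG (an E-box of Myc), CATATG (an E-box of Twist), CAGGTG (an E-box of Snail), CACACACA (a repeat), AACCGGTT (Grainyhead), GGTCACAC (Motif 1), GATAAG (the factors of the GATA family), GCATACTT (Su(Hw)), AGNTGGCGC (CTCF), GCCAT (Pho), TGAGTG (Zeste), TAATCC (Bicoid), TAATTA (homeodomains), TTTATG (Caudal), TTCNNNGAA (the STAT family), TGACTCA (AP-1), GAANNTTC (heat shock factor), AGGTCA (nuclear receptors), AAAAAAAA (poly-A) and AGGATAA (Tramtrack). The DRE contains the BEAF-32 word and the GAGA repeat contains GAGAG, so those pairs overlap. A match means only that the letters are present.

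The core word of Su(Hw), a zinc finger protein of insulators, had the highest ratio in these windows among words held by at least 10 sites. It occurred in 14 sites (2.69%, exact interval 1.48 to 4.48%), against 0.979% of eligible windows, a ratio of 2.75. Poly-A followed at 14.0% against 10.5% (ratio 1.33), then the E-box CATATG at 7.12% against 5.64% (1.26), GATAAG at 9.81% against 7.86% (1.25) and GAGAG at 24.0% against 21.0% (1.15). The exact intervals of CATATG (5.06 to 9.67%), GATAAG (7.39 to 12.7%) and GAGAG (20.4 to 27.9%) included the eligible share. Among all IDR peaks the shares were 14.4% (poly-A), 8.46% (CATATG), 11.5% (GATAAG) and 24.5% (GAGAG). These words were thus not particular to sites between genes. The lowest ratios were those of the STAT word, 4.04% against 6.14% (0.658), and the Bicoid word, 4.42% against 6.53% (0.677). In replicate 1 the Su(Hw) share was 2.22%, and in replicate 2 it was 2.61%. Its rank depended on window length: with 200 bp on each side of the summit its ratio was 1.70, below those of the CTCF word (3.13, 15 sites) and the GAGA repeat (2.01, 19 sites). In the shorter windows the CTCF word, that of another insulator protein, was below the limit of 10 sites and is named after its value was seen: 9 sites (1.73%) against 0.455% of eligible windows, with 1.97% of promoter peaks holding it too.

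Promoter words were less frequent at intergenic sites than at promoter peaks. The DRE was in 1 of the 520 sites (0.192%, exact interval 0.00487 to 1.07%), against 4.28% of promoter peaks and 0.430% of eligible windows. Motif 1, bound by M1BP at many housekeeping promoters, was in 2 sites (0.385%), against 3.83% of promoter peaks and 0.261% of eligible windows. The BEAF-32 word was in 19.6% of the intergenic sites and 29.9% of promoter peaks, with 19.9% of eligible windows. Promoter peaks thus lay above the eligible share for all 3 words. For the DRE the intergenic side was not settled, since the lists of single replicates held it in 3 sites (0.556%, replicate 1) and 4 sites (0.802%, replicate 2), above the eligible share.

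Sites between genes were slightly weaker than the rest of the set. Signal values are those the authors' peak caller assigned, and were compared within a list. The median over the 520 sites was 176 (quartiles 141 and 266, range 120 to 1921), against 188 over all 4278 peaks, 196 for promoter peaks and 185 for gene body peaks. The ratio to all peaks was 0.938, and among the strongest 4278 peaks of single replicates it was 0.917 (replicate 1, 540 intergenic peaks) and 0.957 (replicate 2, 499 intergenic peaks). Both replicates placed the intergenic median below that of their own list. Most sites were near the bottom of the range: 312 of 520 (60%) had a signal under 200, and 27 exceeded 500.

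Intergenic peaks also passed the IDR limit less often than other pooled peaks. The pooled list holds 30000 peaks, of which 14.3% were in the IDR list, and the IDR list is identical to its strongest 4278. Of the 5217 intergenic pooled peaks 520 (9.97%, exact interval 9.17 to 10.8%) were in it, against 20.9% of promoter and 11.7% of gene body pooled peaks. The share of peaks that were intergenic rose down the list, from 7.60% at ranks 1 to 500 to 13.6% at ranks 3001 to 4278 and 20.1% at ranks 20001 to 30000. The promoter share fell along the same ranks, from 55.4% through 39.0% to 19.7%.

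The replicates placed these sites about as alike as other peaks. With at least 50% reciprocal overlap, 299 of the 520 (57.5%, exact interval 53.1 to 61.8%) matched one of the strongest 4278 peaks in both replicates, against 59.9% of all IDR peaks, and 57 matched in neither. With any overlap the share was 73.5%. Across the 518 sites that a peak of each relaxed replicate list overlapped, the signals of both replicates had a Spearman correlation of 0.670 and a Pearson correlation of 0.775 on log2 values. These points share 2 libraries and were chosen on both signals together. Replicate summits lay a median of 22.5 bp apart. A peak was missing in replicate 1 for 2 sites, that near Rubicon on X (signal 126, with 96.2 in replicate 2) and that near Jhbp1 on 3R (123, with 108 in replicate 2), and replicate 2 lacked none.

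**Figure D3:**
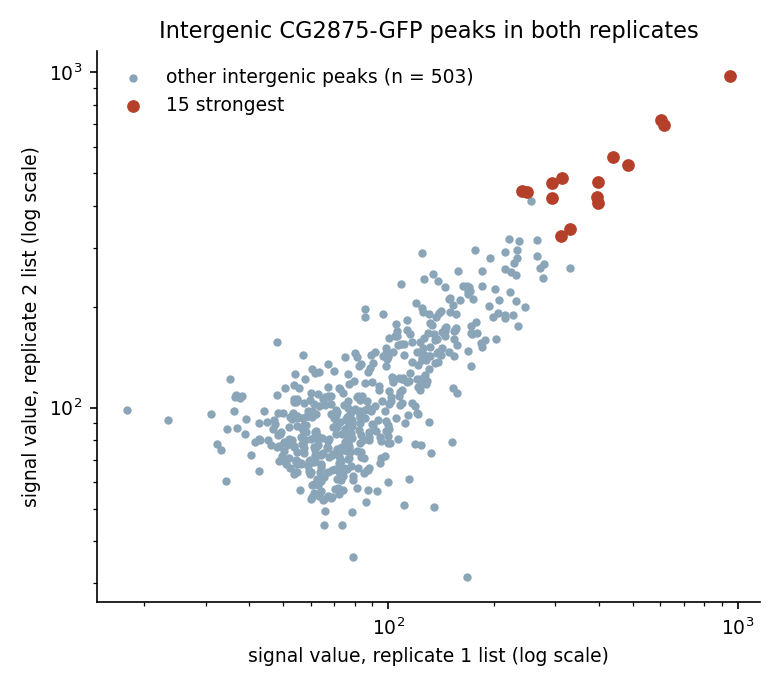
Signal value of each intergenic site in the replicate 1 list (x axis, log scale) and the replicate 2 list (y axis, log scale), for the 518 sites with a peak in both, with the 15 strongest in red. The 15 strongest rank no lower than 320 in replicate 1 and 220 in replicate 2, and lie at the upper end of both axes. They were picked by the signal called on both replicates together, which favours this position.

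The strongest intergenic site lay in a gap flanked on one side by a gene of the Polycomb group. This site, at chr2R:13035131-13035518 with its summit at 13035357, had a signal of 1921 (947 and 977 in replicates 1 and 2) and ranked 6 among the 4278 peaks. It sits in a gap of 36.8 kb between Su(z)2 and CG13323, and its nearest TSS is that of CG13323, 11899 bp away. Su(z)2 and its neighbour Psc encode related RING finger proteins of the Polycomb repressive complex. On the far side of Psc, in the gap of 10.3 kb towards CG13321, a site at 12958257 had 818 (395 and 425 in replicates 1 and 2) and another at 12959419 had 673 (312 and 325). Their nearest TSS is that of CG13321, 4704 and 5866 bp away. The second strongest site of all, at 22678384 on 2R, had 1321 (604 and 719). It lies in the gap between lncRNA:CR44761, whose TSS is 4689 bp away, and Ppa, and its nearest protein-coding TSS is that of RYBP, 7619 bp away. These 4 sites are among the 15 strongest, and each was high in both replicates. The sites were ranked on the signal called on both replicates together, so high values in each are favoured by that choice.

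Of the 15 strongest sites, 6 were on 2R, 5 on 2L and 1 each on 3L, 3R, X and 4. On 2L the site between COX7AL2 and CG31668, whose sequence opens the series above, had 1307 (613 and 696 in replicates 1 and 2). The site between the forkhead genes slp1 and slp2, which pattern segments, had 799 (398 and 408). Another with 799 (314 and 485) lay 14363 bp from the TSS of noc, a zinc finger gene needed for the ocelli, and the site 2477 bp from the TSS of chinmo, a gene of neuronal timing, had 750 (293 and 469). For these last 2 sites replicate 2 was well above replicate 1, whereas the slp1 and slp2 site was nearly level. The remaining site on 2L, near lncRNA:CR44854, had 676 (241 and 442).

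The remaining strong sites flank genes of varied function. On 2R, a site of 1010 (484 and 530) lies in the short gap of 1.34 kb between blw, which encodes a subunit of ATP synthase, and CycB, which encodes a mitotic cyclin, and one of 678 (331 and 342) lies near CG33453. On 3R a site between CG43131 and RabGGTa had 999 (439 and 558). On 3L a site near lncRNA:CR45411 had 872 (397 and 472). The X site, between the gap junction gene Inx2 and cm, had 693 (250 and 440), and that on chromosome 4, between Asator and the homeodomain gene zfh2, had 721 (295 and 423). In 5 of the 15 the nearest TSS belonged to a non-coding RNA gene. All 15 were among the strongest 4278 peaks of both replicates, which their choice by the joint signal favours.

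Intergenic sites were unevenly spread over the chromosome arms, in part because some stretches of the assembly held almost no peaks of any class. Arm 3L carried 176 of the 520 (33.8%) in 25.2% of the eligible sequence, or 20.8 per eligible Mb, with 176 intergenic peaks in replicate 1 and 171 in replicate 2. Arm 2L had 118 (19.3 per eligible Mb) and 3R had 104 (14.8). Density was lower on 2R, with 68 (9.80 per eligible Mb), and on X, with 49 (10.01). X and 2R were also low in each replicate, with 46 and 79 peaks in replicate 1 and 48 and 60 in replicate 2. The 2R value rests on its first 6 Mb, which hold 3.44 Mb of its eligible sequence, 0 intergenic sites and 1 IDR peak in all. On the 5 long arms 20 such near-empty megabases, with under 2 IDR peaks each, hold 27.5% of the eligible sequence and none of the 520 sites. With these left out, a choice made after seeing the data, density was 33.4 on 3L, 23.2 on 2L, 19.4 on 2R, 17.7 on 3R and 10.98 on X, against 21.3 over all arms, so 3L was highest of the 5 long arms either way, while X took the place of 2R as the lowest and 2R passed 3R. IDR peaks of all classes did not follow this order: they numbered 32.6 per Mb on 3L, 30.6 on X and 30.9 on 2R. Chromosome 4, which is short and largely heterochromatic, had 5 intergenic sites among its 18 peaks.

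Part of the high density on 3L came from a few gaps. The 3 gaps with most sites are all there and hold 27 of its 176 (15.3%). Without them 3L had 17.9 sites per eligible Mb, against 13.7 on all other arms together. The first Mb of 3L held 28 sites among 76 IDR peaks, and the megabase from 11 to 12 Mb held 24 among 64.

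The fullest gap runs over 33.0 kb of 3L, from 770463 to 803426, between tRNA:Ile-TAT-1-2 and CG13898. Its 10 sites stood a median of 2991 bp apart. The strongest, with its summit at 781321, had a signal of 352 (179 and 167 in replicates 1 and 2) and lay 10958 bp from the tRNA gene. At the right edge, 1146 bp from the TSS of CG13898, a site had 344 (156 and 191), and the weakest of the gap had 135 (34.3 and 60.6). None of the 10 was among the 15 strongest intergenic sites, so the gap stood out by number and not by height.

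The next gap, 75.05 kb between NijA, a cell surface protein gene, and CG43245, held 9 sites within 34.5 kb. The strongest, at 10752803, had 469 (232 and 250 in replicates 1 and 2) and the weakest 125 (78.7 and 48.99). The third, 19.1 kb between lncRNA:CR44363 and CG7560, packed 8 sites into 8.51 kb, a median of 883 bp apart, and its strongest, at 11416917, had 422 (231 and 209). These sites are so close that neighbouring summits are separated by little more than the longest fragments. The other 2 of the 5 fullest gaps held 4 sites each. They were the 70.5 kb between the POU homeobox gene vvl and lncRNA:CR45115, whose strongest had 285 (113 and 171), and the 48.5 kb between CG43402 and CG31928 on 2L, whose strongest had 235 (91.5 and 146). Another 7 gaps also held 4 sites and were shorter.

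Most gaps with a site held a single one. Sites fell in 354 of the 4793 gaps with eligible sequence (7.39%), as 1 site in 249 gaps, 2 in 71 and 3 or more in 34. The median gap of a site was 12.7 kb long (quartiles 6.30 and 22.0 kb). Density fell with gap length, from 30.8 sites per eligible Mb in gaps up to 5 kb to 22.0 in gaps of 10 to 20 kb and 2.12 in gaps over 50 kb. Without the near-empty megabases the same 3 values were 31.6, 22.8 and 9.33. Gaps between diverging genes, which have a promoter at each end, held 21.2 sites per eligible Mb, against 14.9 in tandem and 14.6 in converging gaps (25.4, 20.3 and 20.6 without those megabases).

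Within the eligible sequence, sites thinned out away from genes. The median distance from a TSS was 3784 bp (quartiles 1989 and 7042), and 74 sites (14.2%) were over 10 kb away. Sites numbered 28.7 per eligible Mb at 1 to 2 kb, 21.6 at 2 to 5 kb, 16.9 at 5 to 10 kb and 12.4 at 10 to 20 kb. Beyond 20 kb there were 12 sites, or 1.51 per eligible Mb. This last class holds 23.6% of the eligible sequence, or 7.94 Mb, of which 6.004 Mb are in the near-empty megabases. Without them the densities were 30.3, 23.3, 19.3, 17.6 and 6.20 from the nearest class to the farthest. Both replicates fell in the same order, to 2.02 and 1.51 per eligible Mb beyond 20 kb. Signal did not fall steadily with distance. The median was 185 at 1 to 2 kb, 173 at 2 to 5 kb and 166 at 5 to 10 kb. It was 194 at 10 to 20 kb and 162 for the 12 sites beyond 20 kb.

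**Figure D4:**
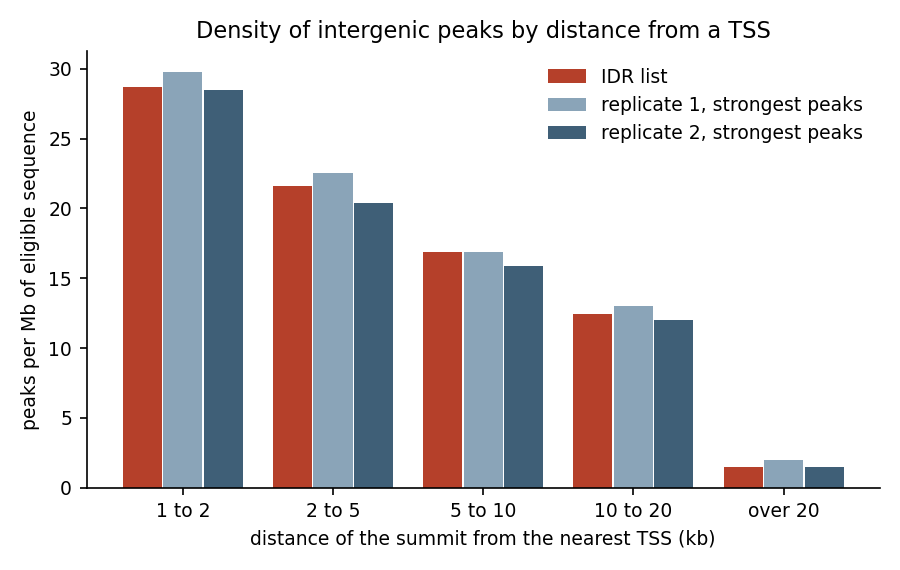
Intergenic peaks per Mb of eligible sequence (bars from 0) by distance of the summit from the nearest TSS in kb, for the IDR list and for the strongest 4278 peaks of each replicate. In the IDR list the bars fall from 28.7 at 1 to 2 kb to 1.51 over 20 kb, and both replicates fall in the same order.

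Most of the farthest sites were in gaps already named. Of the 12 beyond 20 kb, 11 were on 3L, with 5 in the gap of NijA and 3 in that of vvl. The site farthest from any TSS lay 36570 bp from CG43245 and had a signal of 125 (78.7 and 48.99 in replicates 1 and 2). In the vvl gap, a site 35813 bp from lncRNA:CR45115 had 123 (42.9 and 80.2), and one 33873 bp from vvl had 285 (113 and 171). The first 2 of these 3 were among the weaker peaks of the list.

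At the other end of the rule, the sites just inside the limit of 1000 bp had values in the range of peaks just outside it. Just inside were a site 1012 bp from soti, a gene of sperm formation (signal 246, with 128 and 118 in replicates 1 and 2), one 1048 bp from the Polycomb group gene ph-d (163, with 75.4 and 83.4) and one 1059 bp from kon, a muscle attachment gene (220, with 107 and 108). Just outside, and in no gene body, were peaks 989 bp from the aquaporin gene Prip (141, with 29.8 and 112), 985 bp from CG43131 (548, with 200 and 344) and 973 bp from CG2772 (142, with 57.0 and 94.98). The ranges of the 2 sets of 3 overlap.

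Genes for tRNA were the nearest genes more often than their share of the eligible sequence. For non-coding RNA genes the difference was small without the near-empty megabases. A protein-coding TSS was nearest for 334 sites (64.2%, against 66.8% of eligible sequence), a non-coding RNA TSS for 169 (32.5%, against 25.9%) and a tRNA TSS for 16 (3.08%, against 0.824%). Pseudogenes had 1 site (0.192%, against 5.62%). Without the near-empty megabases the eligible shares were 67.1% (protein-coding), 30.5% (non-coding RNA), 1.13% (tRNA) and 1.05% (pseudogenes). The 16 tRNA sites were not spread evenly: 6 belonged to tRNA:Ile-TAT-1-2 in the fullest gap, and all 16 had only 8 nearest tRNA genes. Medians of signal were 203 for these 16, 176 for the non-coding RNA class and 175 for the protein-coding class.

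The genes nearest to a site had a peak at their own promoter about as often as genes in general. For 69 of the 520 sites (13.3%) the nearest gene also had a promoter peak, within 500 bp of one of its own TSSs. Among the 352 distinct protein-coding genes nearest to a site, 53 (15.1%) did, close to the 14.0% of all 13945 protein-coding genes. Of the 898 distinct protein-coding genes nearest to a gene body peak, 30.8% did. Another IDR peak of any class lay within 2 kb of 29.2% of the sites, against 32.6% of all IDR peaks, and another intergenic site within 2 kb of 21.5%. Sites lay upstream of the nearest TSS in 57.1% of cases (297 of 520). The share of eligible sequence upstream was not measured, so no preference can be read from this value.

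Gene lists were used to describe the flanks of the gaps. Sites were counted by whether a protein-coding gene at either end of their gap belonged to 1 of 18 lists, and that share was set beside the share of eligible sequence with such a flank; a gap can count for several lists. The share of sites was above the share of sequence for 13 lists and below it for 5. Without the near-empty megabases, which raises the share of sequence of most lists, it was above for 11 lists and not above for 7, Hox genes and cell adhesion genes having changed side. As 1 gap can hold several sites, and lists overlap, these counts are not independent.

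T-box, GATA and forkhead genes, which encode DNA-binding regulators of germ layers and organs, had the widest difference. Their gaps held 21 sites (4.04%) in 1.02% of the eligible sequence, or 61.2 sites per eligible Mb against 15.5 over all (21.3 without the near-empty megabases). The strongest were the slp1 and slp2 site named above and a site of 550 (279 and 269 in replicates 1 and 2) 3349 bp from foxo, a forkhead gene of insulin signalling. NK and other homeobox genes flanked 31 sites (5.96%, against 4.11% of sequence), led by zfh2 and by a site of 312 (145 and 170) between fuss and toy, a Pax6 gene of eye development. The 2 strongest of this list were both on chromosome 4. Of the pooled intergenic peaks in the gaps of the first list 14.5% were in the IDR list, and of those in the gaps of the second 9.14%, against 9.97% of all pooled intergenic peaks.

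Of the genes that pattern the early embryo, gap, segment polarity and dorsoventral genes were flanks at more than their share of sequence. Gap genes flanked 10 sites (1.92%, against 0.837% of sequence), segment polarity genes 10 (1.92%, against 0.812%), dorsoventral genes 7 (1.35%, against 0.443%) and pair-rule genes 4 (0.769%, against 0.536%). Without the near-empty megabases the shares of sequence of these lists were 1.15%, 1.12%, 0.611% and 0.740%, so pair-rule genes were then near theirs. Of the pooled intergenic peaks in their gaps, 10.5% (gap genes), 9.43% (segment polarity), 14.9% (dorsoventral) and 8.70% (pair-rule) were in the IDR list, against 9.97% of all, so the share that passed was near the general one for 3 of these 4 lists. Several sites share a gap. Near ptc, which encodes the Hedgehog receptor, a site had 383 (194 and 201.1 in replicates 1 and 2), and in the gap of wg, a Wnt ligand gene, a site had 382 (174 and 211). Around the gap genes the values were lower, with 225 (108 and 111) in the gap of kni and 223 (117 and 103) in that of oc. A site near odd, a pair-rule gene, had 183 (90.1 and 88.5). Sites by dpp, a BMP ligand gene, and Dr, a homeobox gene of the neuroectoderm, had 164 (82.2 and 85.7) and 144 (62.0 and 85.2). The medians of these lists were 169 for gap genes, 192 for segment polarity genes and 134 for dorsoventral genes, against 176 over all 520 sites. That of pair-rule genes was 176 and that of the T-box, GATA and forkhead list 208.

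Secreted signal genes flanked 11 sites (2.12%, against 0.896% of sequence), and the Notch ligand gene Ser had the strongest after wg, with 237 (96.5 and 142). Regulators of neuroblasts and neurons flanked 14 (2.69%, against 1.27%). Their strongest were in the gap of SoxN, an HMG box gene of the early nervous system, with 669 (256 and 414 in replicates 1 and 2), and in that of dati, a zinc finger gene, with 581 (266 and 317). Muscle and mesoderm regulators flanked 3 sites (0.577%, against 0.293% of sequence), all in 2 gaps. Among them bin, a forkhead gene of visceral mesoderm, had sites of 372 (203 and 161) and 252 (152 and 78.8) in the same gap. Hox genes flanked 2 sites, both between Glut3 and abd-A, at 368 (160 and 209) and 141 (66.6 and 76.2). Their share was 0.385%, against 0.375% of sequence and 0.518% without the near-empty megabases.

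Genes of chromatin regulators flanked few sites, some of them strong. Polycomb and trithorax genes flanked 7 (1.35%, against 0.936% of sequence and 1.29% without the near-empty megabases). Their median signal was 230, and the 2 strongest were those in the gaps of Su(z)2 and Psc. For 2 of the 7 the nearest protein-coding TSS belonged to a gene of the list. Of the 29 pooled intergenic peaks in the gaps of this list 24.1% were in the IDR list. Insulator and promoter factor genes flanked 3 sites (0.577%, against 0.184% of sequence), with 198 (99.9 and 89.0) and 193 (76.9 and 118) in the gap between lola and psq, both BTB protein genes. Cell adhesion and guidance genes flanked 17 (3.27%, against 2.69% of sequence and 3.71% without the near-empty megabases). These were led by 18w, a Toll family receptor gene, with 404 (216 and 189), and robo2, an axon guidance receptor gene, with 318 (145 and 163).

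Genes of terminal functions were flanks at less than their share of sequence or near it. Chemosensory receptor genes flanked 10 sites (1.92%, against 3.19% of sequence), with 342 (185 and 152) near Gr93a and 278 (117 and 157) near Gr89a as the strongest. Cytoplasmic ribosomal protein genes flanked 1 site (0.192%, against 1.59% of sequence and 0.543% without the near-empty megabases), which lay 1156 bp from RpS23 and had 137 (81.4 and 57.6). Cuticle and chorion genes flanked 2 (0.385%, against 0.539% of sequence), the stronger near Cpr76Ba with 368 (126 and 243). Ecdysone response genes flanked 1 (0.192%, against 0.265% of sequence), near the orphan nuclear receptor gene Hr38 with 138 (50.1 and 79.2). Small heat shock and chaperone genes flanked 0 of the 520 sites, in 0.0898% of the eligible sequence.

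**Figure D5:**
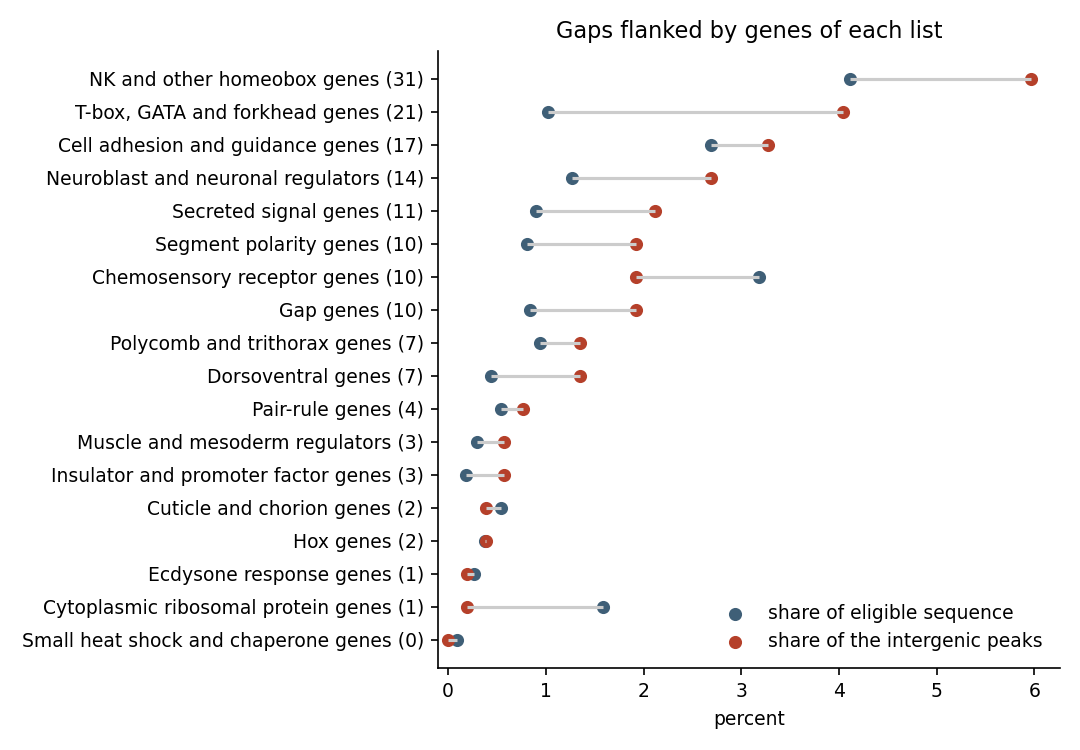
Percent of the 520 intergenic sites (red) and percent of eligible sequence (blue) in gaps flanked by a protein-coding gene of each list, with the number of sites in brackets. The red point is to the right of the blue one for 13 lists (11 without the near-empty megabases), farthest for T-box, GATA and forkhead genes (4.04% against 1.02%), and to the left for chemosensory receptor genes (1.92% against 3.19%) and ribosomal protein genes (0.192% against 1.59%).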

How the data were processed

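Chromatin from 2 biological replicates was immunoprecipitated through the GFP tag, and the authors deposited peak lists on dm6 for each replicate, for both together (30000 peaks each) and after IDR thresholding. Each peak has a signal value, a −log10 q-value and a summit offset as deposited. The q-value was tied over the IDR list and not used. Per the file records the lists were made against a control alignment. Aligner, caller, versions and IDR limit were not given in the sources used here; dm3 lists were not used.

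Summits (1-based) were placed on the Ensembl release 115 annotation, with 18164 genes on X, 2L, 2R, 3L, 3R and 4. Replicate signals are those of the overlapping peak with the nearest summit. The eligible sequence, all bases that satisfy the same distance rule, spans 33.6 Mb (25.1% of these arms). In the lists 679 symbols matched and 12 did not. Sequence came from the RefSeq dm6 assembly. Intervals are exact binomial at 95% and cover counting error only, as 2 libraries lie behind all peaks. The sites, lists and motifs were chosen with earlier results of these data known. Named sites are the 15 strongest, the strongest of the 5 fullest gaps, the extremes of distance, sites missing in a replicate, the strongest 1 or 2 of each list, and the motifs with the 5 highest and 2 lowest ratios. Code was tested on simulated data. Work was done in Python 3.11.15 with scipy 1.17.1, pandas 2.3.3, numpy 2.4.6 and, for plots, matplotlib 3.10.9. Windows at a summit are 201 bp long unless stated.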

Additional observations from a re-analysis of the deposited data

How the results depend on the processing

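Of 76 alternative values for 19 results, 55 stayed within the counting interval or the spread between replicates and 21 moved. The share of IDR peaks that were intergenic, 12.2%, became 14.7% beyond 500 bp, 9.09% beyond 2000 bp, 16.2% when protein-coding genes alone counted and 10.7% in the stronger 50% of peaks. In the last set the signal ratio was 0.991 in place of 0.938. The share matched in both replicates, 57.5%, was 73.5% with any overlap and 69.4% with summits within 100 bp. The GC difference from eligible sequence, -5.97 percentage points, was -7.92 with 50 bp and -1.50 with 200 bp on each side of the summit, and between -5.72 and -4.98 without a replicate. The poly-A ratio of 1.33 was 1.05 with 200 bp on each side. The share of sites whose nearest gene had a promoter summit, 13.3%, was 8.65% with a promoter window of 250 bp and 21.5% with 1000 bp. For the 8-mer, with alternatives chosen after seeing the data, the ratio of 12.5 was 6.99 with 50 bp, 8.61 with 200 bp on each side and 2.94 against weaker intergenic peaks. Leaving out megabases with under 2 IDR peaks, also chosen after seeing the data, moved the 5 densities by arm (10.98 to 33.4 per eligible Mb) and kept the GC difference (-6.47) and the 8-mer ratio (10.4) within their spread. The ratios of the 8-mer and of the motifs with the 5 highest and 2 lowest ratios stayed on the same side of 1 under these alternatives. Several other words did not. The DRE ratio of 0.448 was 1.29 in replicate 1 and 1.87 in replicate 2. With 200 bp on each side, Motif 1 went from 1.47 to 0.730 and the GAGA repeat from 0.843 to 2.01. No paired analysis was possible because there is 1 group. Read depth, the mock background and embryonic cell types cannot be examined in these lists, and all sites rest on the same 2 libraries.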
